A study of Mus musculus with 4 samples.

Results

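Wt1-set fibroblasts were defined as cells of the fibroblast gate in which the genes of a set led by Wt1 were detected more often than those of 3 other fibroblast sets. The gate held cells with at least 200 detected genes, at least 4 of the 9 genes Col1a1, Col1a2, Col3a1, Col5a1, Lum, Pdgfra, Pdpn, Fap and Mmp2, and no unique molecular identifier (UMI, the count of 1 captured RNA molecule) of the leukocyte gene Ptprc. In each gate cell, the detected genes of the Wt1 set (Wt1, Calca, Adgrd1, Ptgis, Pappa and Sntg1) were counted beside those of a Clec3b set (Clec3b, Chl1, Svep1, Abi3bp, Dpt and Sfrp1), an Apod set (Apod, Thbs4, Ptx3, Cilp, Tac1 and Gfpt2) and an Fbn2 set (Fbn2, Col8a1, Col12a1, Galnt17, Cthrc1 and Tnc). A cell was kept when the Wt1 set had the most detected genes, at least 2, with no tie. This gave 651 of 4244 gate cells, and of 44554 cells in all. The members were chosen by these measured values, so their contrast with the other gate cells is a description and carries no test.

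The cells came from orthotopic KPC tumors, grown in the pancreas of obese male mice from pancreatic ductal adenocarcinoma (PDAC) cells of the KPC mouse model. Pdgfrb-TK hosts express thymidine kinase from the Pdgfrb promoter and received ganciclovir (Pdgfrb-TK/GCV), which kills dividing cells that express the kinase, or PBS (Pdgfrb-TK/PBS), so both of these groups carry the transgene. Hosts without it, labeled C57BL/6 and named C57BL/6J in the methods of the study, received D-CAN, or PBS (WT/PBS). D-CAN is a peptide agent built from a decorin-binding stretch, meant for adipose stromal cells, and a toxic stretch that kills the cell it enters. All hosts ate a high-fat diet, and the labels give an age of 7 months while the methods of the study give another. Tumor suspensions were pooled by treatment into 1 droplet scRNA-seq library per condition. No difference between conditions therefore has a replicate check, cells are not replicates, and no test was made. Values of the libraries are given below in the order Pdgfrb-TK/GCV, Pdgfrb-TK/PBS, then D-CAN, then WT/PBS, which is called library order. The libraries held 127722502, 84020317, 130115741 and 155408336 UMIs in this order. Between 26 and 42 cell barcodes were shared by any pair of libraries, and no barcode was shared by Wt1-set cells of different libraries.

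Mesothelium is the flat epithelium that lines the peritoneal cavity and covers the pancreas. Its cells express the transcription factor Wt1 and surface proteins such as mesothelin, uroplakins and the mucin Muc16, and they can take on fibroblast features in injury and cancer. In pancreatic tumors, antigen-presenting cancer-associated fibroblasts (apCAFs), which carry MHC class II, have been traced to mesothelial cells.

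Most Wt1-set cells of 3 libraries, but few of WT/PBS, lay in a cluster led by mesothelial genes. When all gate cells were clustered without the 33 genes of the rule, 419 of the 651 Wt1-set cells fell into 1 of 16 clusters, whose 10 leading genes included the mesothelial genes Upk3b, Upk1b and Gpm6a. The name mesothelial-like rests on these leading genes. Krt8, a keratin gene that mesothelium also expresses, was lower in Wt1-set cells inside this cluster than outside it in each library. This mesothelial-like cluster held 158 of 215 Wt1-set cells of Pdgfrb-TK/GCV (73.5%, exact Clopper-Pearson 95% interval 67.1% to 79.3%) and 183 of 244 of Pdgfrb-TK/PBS (75.0%, 69.1% to 80.3%). It held 67 of 99 Wt1-set cells of D-CAN (67.7%, 57.5% to 76.7%) and 11 of 93 of WT/PBS (11.8%, 6.05% to 20.2%). Of the WT/PBS cells, 35 lay in a cluster of 158 gate cells led by Prr9, Ereg and Serpinb2, and 30 in a cluster of 288 gate cells led by Pappa2, Tnfrsf9 and Zfp791. Neither cluster had mesothelial surface genes among its 10 leading genes, so the data go against the mesothelial label for most Wt1-set cells of WT/PBS. This library stood apart from the others and is the control library of the D-CAN comparison, for which values against Pdgfrb-TK/PBS and values within the cluster are given beside the main results below.

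The genes of the Wt1 set have different roles and mostly lie on different chromosomes (mm10, GENCODE release M21). Wt1 (chr2:105126529-105173616, plus strand) encodes the zinc finger factor of the mesothelium and the developing kidney and gonad. Calca (chr7:114631478-114636357, minus strand) encodes calcitonin and the neuropeptide CGRP. Ptgis (chr2:167191805-167240604, minus strand) encodes prostacyclin synthase, and Pappa (chr4:65124174-65357509, plus strand) a protease that cleaves IGF binding proteins. Adgrd1 (chr5:129096750-129204599, plus strand) encodes an adhesion G protein-coupled receptor and Sntg1 (chr1:8361475-9299878, minus strand) a syntrophin, an adaptor protein of the dystrophin complex. Wt1os, an antisense RNA (chr2:105076538-105126510, minus strand), starts 18 bases from the start of Wt1. The annotated genes of this pair do not overlap.

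Promoter windows are shown for Calca, the gene of the set with the largest ratio between its highest and lowest library, and for Wt1os, whose window also covers the start of Wt1. They are RefSeq windows of GRCm38.p6, from 250 bases before to 50 bases after the gene start, written 5′ to 3′ on the strand of the gene (Calca, chr7:114636308-114636607, and Wt1os, chr2:105126461-105126760, both minus strand). In Calca the capitals mark the letters TGACGCAA, which resemble a cyclic AMP response element, at bases 186 to 193. In Wt1os they mark the 18 bases between the Wt1os and Wt1 starts.
Calca: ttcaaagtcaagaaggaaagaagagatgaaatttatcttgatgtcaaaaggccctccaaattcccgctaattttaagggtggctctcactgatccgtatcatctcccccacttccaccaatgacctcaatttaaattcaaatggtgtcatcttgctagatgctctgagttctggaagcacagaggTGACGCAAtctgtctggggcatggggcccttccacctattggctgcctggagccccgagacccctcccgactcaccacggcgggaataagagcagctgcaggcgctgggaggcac
Wt1os: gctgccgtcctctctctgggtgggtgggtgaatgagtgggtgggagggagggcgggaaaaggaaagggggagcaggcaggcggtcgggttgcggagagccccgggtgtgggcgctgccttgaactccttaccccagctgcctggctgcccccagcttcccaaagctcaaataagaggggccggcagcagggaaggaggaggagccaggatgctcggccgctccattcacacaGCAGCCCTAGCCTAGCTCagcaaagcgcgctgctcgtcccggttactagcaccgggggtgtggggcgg
The letters TGACGCAA were found on either strand in 0.490% of the 32851 promoters of this length. The motif GCGTGGGNG, bound by WT1 and EGR factors, was found in 1.90% of them and in neither window shown. A match is a description of letters, and no binding was measured.

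Of the 651 cells, 65 had 2 genes of the Wt1 set detected, 155 had 3, 215 had 4, 155 had 5 and 61 had 6. Just inside the rule, 214 cells (32.9%) led the next set by 1 gene. Just outside it, 243 gate cells tied with another set, and 27 had 1 gene of the Wt1 set and none of the others. The margin differed between libraries, with a lead of 1 gene in 22.3%, 30.3%, 29.3% and 67.7% of the Wt1-set cells in library order. Wt1-set cells of WT/PBS had a median of 2 detected genes of the Fbn2 set, against 1, 0 and 1 in the other libraries. Their median depth was 11721, 6231, 7748 and 14881 UMIs per cell in library order, so the library with the fewest cells in the mesothelial-like cluster was also the deepest.

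Levels are UMIs summed over the Wt1-set cells of a library, per 1000000 UMIs of those cells (CPM), with exact Poisson 95% intervals that cover counting error only. In bulk sums of this kind, fewer expressing cells and less RNA per cell give the same level. A floor of 3 UMIs, set for counts of 0, is 0.904, 1.49, 2.69 and 1.94 CPM in library order. The exact interval of a count of 0 reaches somewhat above this floor. Wt1 was at 141 (129 to 154), 176 (158 to 195), 537 (495 to 582) and 113 (96.9 to 131) CPM in library order, highest in D-CAN, and in the other gate cells at 29.6, 44.2, 81.99 and 26.2 CPM. Calca was at 486 (463 to 511), 269 (247 to 293), 145 (124 to 169) and 41.99 (32.4 to 53.5) CPM, highest in Pdgfrb-TK/GCV. A single cell held 13.5%, 8.47%, 30.2% and 21.5% of the Calca UMIs in library order, a spread that these intervals do not cover. Ptgis was at 659, 428, 486 and 319.7 CPM and Adgrd1 at 273, 299, 432 and 71.1 CPM. Pappa was highest in WT/PBS, with 209, 126, 331 and 459 CPM in library order, and Sntg1 in D-CAN, with 242, 374, 834 and 169.9 CPM. The genes of the set thus had no common order of libraries. Wt1 had a UMI in 78.6%, 67.2%, 93.9% and 84.9% of the Wt1-set cells and in 0.568%, 0.362%, 1.001% and 0.744% of the cells outside the gate, where the median depth was 6828.5, 5185, 3886 and 6322.5 UMIs. Calca had a UMI in 49.3%, 43.9%, 19.2% and 17.2% of the Wt1-set cells, fewer than any other gene of the set in D-CAN and WT/PBS.

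Within the list of 14 mesothelial genes, uroplakin, mucin and other surface genes were higher in Wt1-set cells than in the rest of the gate, most clearly in 3 libraries, while Krt8 and Krt18 were lower in each library and Krt7, Krt19 and mesothelin were on both sides. Of 8 genes of the list tested in this contrast, 2 were at least 2-fold higher in each library and 3 above the other gate cells in each. Over all 3694 genes tested, these shares were 0.92% and 16.6%. The median log2 difference was -0.10 for the list, against 0.01 over all genes tested. The summed level of the list, led by Krt8 or Krt18, was lower in Wt1-set cells (2232, 3191, 2639 and 1644 CPM in library order) than in the other gate cells (2360.2, 4096, 3104 and 4603 CPM) of each library. Upk3b, an uroplakin gene, was at 38.9 (32.5 to 46.2), 43.1 (34.6 to 53.2), 138 (117 to 162) and 0.646 (0.0164 to 3.599) CPM in library order, with 1 UMI in WT/PBS and at most 0.420 CPM in the other gate cells of any library. Upk1b, another uroplakin gene, was at 40.7, 49.1, 107 and 15.5 CPM, against at most 1.21 CPM in the other gate cells. The leucine-rich repeat gene Lrrn4 (12.4, 18.8, 94.9 and 2.58 CPM), the mucin gene Muc16 (6.93, 13.9, 51.95 and 1.29 CPM) and the membrane glycoprotein gene Gpm6a (20.2, 32.7, 118 and 3.23 CPM) had the same order of libraries, highest in D-CAN and lowest in WT/PBS. Mesothelin (Msln), in contrast, was at 124, 255, 163 and 103 CPM in Wt1-set cells and at 133, 287, 132 and 230.2 CPM in the other gate cells. The keratin gene Krt19 was at 361, 459, 359 and 156 CPM in Wt1-set cells and at 247, 654, 403 and 454 CPM in the other gate cells. Msln and the keratins are also genes of KPC tumor cells. Summed over 9 epithelial markers of these cells, the level was 2060.2, 3229, 1845 and 1597 CPM in Wt1-set cells, 2442, 4651, 3419 and 4816 CPM in the other gate cells and 5377, 8885, 5203 and 7364 CPM outside the gate. The most abundant of the 9 was Krt18 (717 CPM) in Pdgfrb-TK/GCV, Krt8 (1164 CPM) in Pdgfrb-TK/PBS, Krt8 (706 CPM) in D-CAN and Krt18 (810.02 CPM) in WT/PBS. Epcam, the defining gene of the list, was at 22.3, 8.93, 7.17 and 9.04 CPM, and 1 of the 9 genes was at 0 in each library. The part of tumor cell RNA in these values was not tested.

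**Figure D1:**
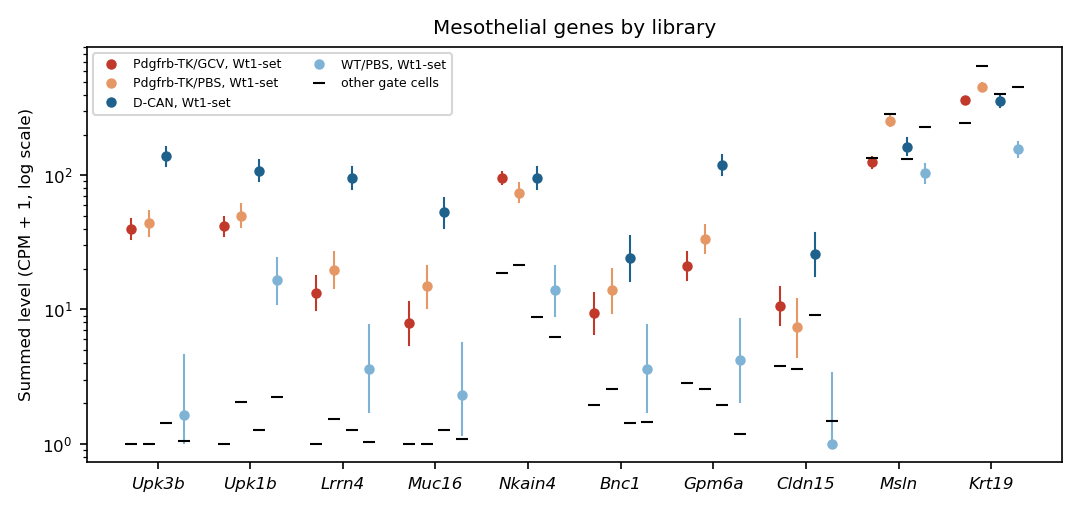
Summed level of mesothelial genes (y axis, CPM + 1 on a log scale) in the Wt1-set cells of each library (colored points with exact Poisson 95% intervals) and in the other gate cells of the same library (black bars). Upk3b reached 38.9, 43.1 and 138 CPM in 3 libraries with 1 UMI in WT/PBS, while Msln and Krt19 were not above the other gate cells in every library.

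In single cells, at least 2 of 8 mesothelial surface genes (Upk3b, Upk1b, Lrrn4, Muc16, Nkain4, Bnc1, Gpm6a and Cldn15, chosen after their levels were seen) were detected in 33.5%, 20.5%, 33.3% and 10.8% of the Wt1-set cells in library order. The shares were 1.10%, 0.687%, 1.10% and 0.425% in the other gate cells and 0.109%, 0.211%, 0.300% and 0.159% outside the gate. Near this limit, 58, 69, 20 and 16 Wt1-set cells had exactly 1 of the 8 genes. Of the Wt1-set cells in the mesothelial-like cluster, 38.6%, 23.0%, 47.8% and 36.4% had at least 2 of the 8 genes. Outside the cluster, 11, 8, 1 and 6 Wt1-set cells had at least 2, against 61, 42, 32 and 4 inside it. Thinned to 2000 UMIs per cell, with 1, 6, 5 and 5 shallower Wt1-set cells left out, at least 1 of the 8 genes was found in 30.8%, 22.3%, 35.1% and 6.82% of the Wt1-set cells and in 1.05%, 3.53%, 1.48% and 1.91% of the cells outside the gate. WT/PBS was thus lowest at full depth and at equal depth.

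Among the genes outside the rule, 3694 were compared between Wt1-set cells and the other gate cells of the same library. Of these, 34 (0.92%) were at least 2-fold higher in Wt1-set cells in each of the 4 libraries, and 14 (0.379%) at least 2-fold lower in each. Without WT/PBS, 64 (1.73%) of 3702 genes were higher and 30 (0.81%) lower in each library. Upk1b had the largest least difference, with log2 differences of 5.38, 4.63, 6.43 and 2.90 in library order. Slpi, a secreted inhibitor of leukocyte proteases, was at 1818, 1107, 1142 and 397 CPM in Wt1-set cells and 262, 73.998, 15.6 and 63.7 CPM in the other gate cells, a log2 difference of 2.79, 3.88, 6.11 and 2.62. Enpp2, which encodes the enzyme that makes lysophosphatidic acid, was at 76.3, 98.2, 256 and 12.9 CPM against 20.3, 16.4, 10.02 and 3.67 CPM. Lgals7, a galectin gene, was at 135, 179, 360.1 and 31.7 CPM against 41.6, 23.1, 8.39 and 9.84 CPM. These genes were all highest in D-CAN or Pdgfrb-TK/GCV and lowest in WT/PBS. The drug efflux pump gene Abcb1b, at 330.4, 282, 292 and 287 CPM against 118, 64.7, 16.1 and 40.3 CPM, was nearly level over the Wt1-set cells of the libraries. The other 10 leading genes were Tmem132d, Bicd1, Kiz, Tmem108, Gm20186, Tmtc2, Tmeff2, Dmkn, Il1rapl1 and the MHC class I gene H2-Q7, with a least log2 difference between 1.44 (H2-Q7) and 2.17 (Tmem132d).

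Genes that were lower in Wt1-set cells included matrix genes and genes of other fibroblasts. Sparcl1, a matricellular protein gene, had the largest least difference, with 31.3, 40.2, 23.3 and 26.5 CPM in Wt1-set cells and 219, 406, 411 and 206 CPM in the other gate cells. Postn (periostin), a matrix gene of myofibroblastic CAFs (myCAFs), was at 8.74, 17.9, 121 and 213 CPM against 340.1, 633, 372 and 734 CPM. The log2 difference of Postn was -5.13, -5.07, -1.61 and -1.78, larger in the Pdgfrb-TK libraries than in the other pair. The collagen gene Col14a1, the matrix protease genes Mmp3 and Ctsk, the transcription factor gene Ebf1 and the chemokine gene Cxcl14 were also at least 2-fold lower in each library, as were Lbp, Sned1 and Cped1. Of 17 interstitial matrix genes tested, none was above the other gate cells in all 4 libraries, and their median log2 difference was -0.44, against 0.01 over all 3694 genes. WT/PBS went the other way in the summed level of the list, with 13004 CPM in Wt1-set cells and 8433 CPM in the other gate cells, as did the myCAF list (9689 against 7940.2 CPM). Decorin (Dcn), the proteoglycan whose non-glycanated form D-CAN binds, was at 2138 (2089 to 2189), 1992 (1931 to 2054), 2892 (2793 to 2994) and 1156 (1103 to 1211) CPM, above the other gate cells (1213, 1306, 1699.95 and 749.8 CPM) in each library.

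**Figure D2:**
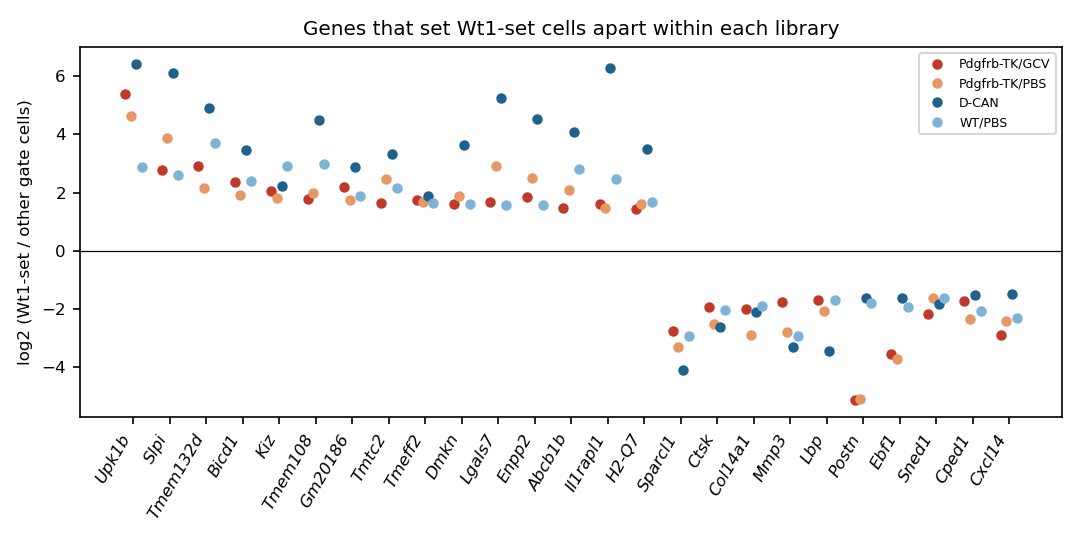
Difference between Wt1-set cells and the other gate cells of the same library (y axis, log2 ratio of CPM + 1) for the 15 genes outside the rule that were highest and the 10 that were lowest in Wt1-set cells by their least difference over the 4 libraries, 1 point per library. Upk1b reached 6.43 in D-CAN, and Postn lay at -5.13 and -5.07 in the Pdgfrb-TK libraries.

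The pathway lists describe the same contrast. Of 5 apCAF genes tested, 1 (Slpi) was at least 2-fold higher in each library, 3 were above the other gate cells in each, and the median log2 difference was 1.33. Saa3, an acute phase gene and apCAF marker, was at 5171 (5094 to 5249), 2720.2 (2649 to 2793), 717 (668 to 768) and 927 (879.6 to 976) CPM in library order, highest in the Pdgfrb-TK libraries. In the other gate cells Saa3 was at 1505, 455, 469 and 58.98 CPM, and in the Clec3b-set cells of D-CAN at 1090.5 CPM, above the Wt1-set cells of that library. Of 13 chemokine and cytokine genes tested, 2 (Ccl2 and Cxcl1) were at least 2-fold higher in each library and 1 (Cxcl14) at least 2-fold lower. The monocyte chemokine gene Ccl2 was at 234, 102, 1155 and 1908 CPM against 48.98, 24.7, 215 and 914 CPM, and the neutrophil chemokine gene Cxcl1 at 84.4, 29.8, 709 and 1327 CPM against 24.03, 11.3, 159 and 546 CPM. Both were higher in the D-CAN and WT/PBS libraries than in the Pdgfrb-TK libraries. Some classes within the rest of the gate were at or above the level of the Wt1-set cells. In WT/PBS, Cxcl1 was at 1947 CPM in Clec3b-set and 1578 CPM in Apod-set cells, and Ccl2 at 1675 and 3121 CPM. In the 54 Clec3b-set cells of Pdgfrb-TK/PBS, Ccl2 was at 117 CPM and Cxcl1 at 60.2 CPM. All 10 interferon-γ target genes tested were above the other gate cells in each library, as were 16.6% of all genes tested, and none was 2-fold higher in every library (median log2 difference 0.997). Of 9 myCAF genes tested, none was above the other gate cells in every library, 1 (Postn) was at least 2-fold lower in each, and the median log2 difference was -0.83. Wnt4, a Wnt ligand gene, was at 290.3, 245, 284 and 59.4 CPM against 121, 82.7, 77.1 and 26.7 CPM.

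Clec3b-set and Fbn2-set cells differed from Wt1-set cells in these genes. In D-CAN, Slpi was at 1142 CPM in 99 Wt1-set cells, 19.5 CPM in 522 Clec3b-set cells and 8.05 CPM in 228 Fbn2-set cells. Cd74, the MHC class II invariant chain, was at 760.5, 41.4 and 28.5 CPM in the same cells, and no UMI of Upk3b was counted in the other 2 classes. Dcn was at 2892 CPM in Wt1-set cells, between Clec3b-set cells (4356 CPM) and Fbn2-set cells (605 CPM). C3, the central complement protein, had the same order, with 3159, 7785 and 487 CPM in Wt1-set, Clec3b-set and Fbn2-set cells. In D-CAN, Pdgfrb was at 116 CPM in Wt1-set cells against 182 and 269.5 CPM. In Pdgfrb-TK/PBS and WT/PBS it was higher in Wt1-set cells (97.7 and 80.1 CPM) than in Clec3b-set cells (76.1 and 41.9 CPM) and lower than in Fbn2-set cells (359.9 and 128 CPM). Acta2, the smooth muscle actin of myofibroblasts, was at 410.2 CPM in Wt1-set cells of D-CAN against 92.8 and 1136 CPM, and in WT/PBS at 635 CPM in Wt1-set cells, above Fbn2-set cells (544 CPM).

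Wt1-set cells inside and outside the mesothelial-like cluster differed in several of these genes in each library. Slpi was at 2142, 1592, 1746 and 811 CPM inside the cluster and 1308, 440.2, 17.9 and 335 CPM outside it, in library order. Saa3 was at 7413, 4121, 1061 and 4401 CPM inside and 1646, 796, 76.8 and 412 CPM outside. Dcn was at 3046, 2729, 3857 and 1767 CPM inside and 712, 979, 1099 and 1066 CPM outside, and Cd74 at 109.99, 164, 1127 and 40.1 CPM inside and 34.9, 34.1, 79.4 and 14.1 CPM outside. Levels of these 4 genes were thus higher inside the cluster in every library. The keratin gene Krt8 ran the other way, at 178, 326, 351 and 205 CPM inside and 1528, 2314, 1365 and 564 CPM outside. Msln was lower inside the cluster in the Pdgfrb-TK libraries (53.8 against 235 CPM, and 106 against 459 CPM) and higher in D-CAN (197 against 99.9 CPM). Tnc (tenascin C), a matrix gene of the Fbn2 set, was at 98.6, 59.97, 366 and 501 CPM inside and 298, 153, 986 and 845 CPM outside. Genes outside the rule could take part in the clustering, so these values describe the split and do not test it.

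Shares were compared because GCV and D-CAN both act on fibroblasts. After GCV the gate held 306 cells, of which 215 were Wt1-set cells (70.3%, 64.8% to 75.3%), and in Pdgfrb-TK/PBS it held 535 cells, of which 244 were (45.6%, 41.3% to 49.9%). The share of the gate was 1.54-fold higher after GCV (exact conditional binomial 95% interval 1.28 to 1.86). Of all cells kept, Wt1-set cells were 1.75% (1.53% to 1.9986%) after GCV and 2.33% (2.05% to 2.64%) in its control, a fold of 0.751 (0.622 to 0.906). Over the same cells, the fold was 0.111 (0.0424 to 0.244) for Clec3b-set cells, from 7 against 54 cells, and 0.169 (0.109 to 0.255) for Fbn2-set cells, from 28 against 141 cells. Wt1-set cells were thus the class of these 3 with the least reduced share. Against WT/PBS in place of its own control, the Wt1-set share of all cells was 2.19-fold higher after GCV, the opposite direction.

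In D-CAN, 99 of 1190 gate cells were Wt1-set cells (8.32%, 6.81% to 10.04%), and in WT/PBS 93 of 2213 were (4.20%, 3.41% to 5.12%), a 1.98-fold higher share after D-CAN (1.48 to 2.66). Of all cells, the shares were 0.973% (0.791% to 1.18%) and 0.79986% (0.646% to 0.979%), with a fold of 1.22 (0.907 to 1.63) whose interval includes 1. At 2000 UMIs per cell this fold was 1.97 (1.34 to 2.94), and without Wt1 in the rule it was 2.25 (1.51 to 3.42). For Wt1-set cells of the mesothelial-like cluster alone, some of whose leading genes themselves differed between these libraries, the fold was 6.96 of all cells (3.65 to 14.6) and 11.3 of the gate (5.94 to 23.8). Fbn2-set cells had a fold of 0.190 (0.164 to 0.218) and Clec3b-set cells a fold of 9.32 (7.18 to 12.3) of all cells. Against Pdgfrb-TK/PBS, the fold of the Wt1-set share of the gate was 0.182, so the direction depended on the control. Between the PBS libraries, the share of the gate was 10.9-fold higher in Pdgfrb-TK/PBS (8.51 to 13.9), more than between either treated library and its control.

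**Figure D3:**
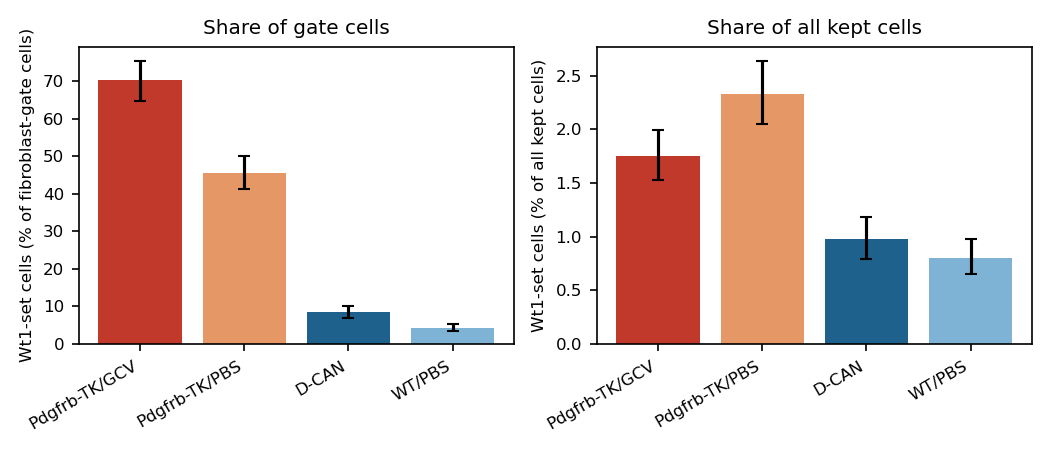
Wt1-set cells as a percent of fibroblast-gate cells (left) and of all kept cells (right) in the 4 libraries, as bars from 0 with exact Clopper-Pearson 95% intervals. The Pdgfrb-TK libraries (70.3% and 45.6% of the gate) lie above D-CAN and WT/PBS (8.32% and 4.20%).

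Few genes of Wt1-set cells differed between GCV and PBS. Of 3549 genes that passed the filter, 136 (3.83%) differed by 2-fold or more, 76 (2.14%) higher and 60 (1.69%) lower after GCV, with a median log2 ratio of -0.03. The balance of directions turned within the mesothelial-like cluster, where 183 of 3552 genes (5.15%) differed, 84 (2.36%) higher and 99 (2.79%) lower, and at a filter of 20 UMIs and 10 CPM, where 513 differed and 44.2% of them were higher. Thinned to 2000 UMIs per cell, 49 genes differed. The same comparison gave 6.19% of the genes in the other gate cells and 6.98% outside the gate. Against WT/PBS, 709 of 3894 genes (18.2%) of the Wt1-set cells of Pdgfrb-TK/GCV differed by 2-fold or more. Pdgfrb, whose promoter drives the kinase, was at 31.6, 97.7, 116 and 80.1 CPM in library order, with a fold of 0.324 after GCV (0.253 to 0.413). Its log2 ratio was -1.60 in Wt1-set cells and -1.38 in the other gate cells.

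Targets of p53, the factor that halts the cell cycle after DNA damage, were higher after GCV. Of 5 tested, 4 were at least 2-fold higher, against 2.14% of all genes tested, and the fifth (Bax) had a log2 ratio of 0.80. The median log2 ratio of the 5 was 1.25. The filter passed 2 of the 5 only through their level after GCV, and of the 3 at 50 CPM in both libraries 2 were at least 2-fold higher. Cdkn1a, the cell cycle inhibitor p21, was at 409 (387 to 431), 64.5 (53.9 to 76.5), 96.7 (79.4 to 117) and 269 (244 to 296) CPM in library order, 6.34-fold higher after GCV (5.29 to 7.65). It had a UMI in 172 of 215 cells after GCV and in 55 of 244 cells in Pdgfrb-TK/PBS, and WT/PBS, without GCV, lay between these libraries in its level. Between the PBS libraries, 3 of 5 targets tested were at least 2-fold higher in WT/PBS, against 12.4% of all genes tested. The median log2 ratio of Pdgfrb-TK/PBS to WT/PBS was -1.36 for the 5 targets, against -0.10 over all genes tested. Of these 5, 2 passed the filter only through WT/PBS, and of the 3 at 50 CPM in both 1 was past 2-fold, with a median of -0.35. Mdm2, the ubiquitin ligase of p53, was 2.41-fold higher (1.84 to 3.20), the cyclin G gene Ccng1 2.76-fold (2.10 to 3.68) and Phlda3 2.41-fold (1.97 to 2.95). The log2 ratio of Cdkn1a was 2.65 in Wt1-set cells, 1.95 in the other gate cells and 0.81 outside the gate. Inside the mesothelial-like cluster Cdkn1a was at 491 CPM after GCV against 56.5 CPM, and outside the cluster at 279.8 against 75.3 CPM.

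Hypoxia and glycolysis genes were also higher. All 13 tested were above PBS, as were 46.9% of all genes tested, with a median log2 ratio of 0.77 for the 13. By 2-fold or more, 5 of the 13 were higher, against 2.14% of all genes tested. Of the 12 at 50 CPM in both libraries, 4 were at least 2-fold higher, with a median of 0.74. The glucose transporter gene Slc2a1 was 2.52-fold higher (2.04 to 3.14), the carbonic anhydrase gene Car9 2.59-fold (1.92 to 3.55), the enolase gene Eno1 2.36-fold (2.09 to 2.66) and the angiogenic factor gene Vegfa 2.18-fold (1.84 to 2.60). The log2 ratio of Slc2a1 was 1.32 in Wt1-set cells, 1.59 in the other gate cells and 0.96 outside the gate, and that of Vegfa was 1.12, 1.42 and 0.69. All 11 immediate early and heat shock genes were above PBS as well, with a median log2 ratio of 0.58. By 2-fold or more, 3 of the 11 were higher (2 of the 9 at 50 CPM in both libraries), against 2.14% of all genes tested. Immediate early and heat shock genes respond to stress and to cell handling, and their part in these results was not tested.

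Besides Cdkn1a, the genes with the largest ratio to PBS included secreted signals. The prostaglandin synthase gene Ptgs2 (COX-2) was at 116, 13.9, 379.8 and 587 CPM in library order (8.38-fold, 5.71 to 12.8) and the activin subunit gene Inhba at 349.95, 54.5, 186 and 1055 CPM (6.42-fold, 5.27 to 7.87). Inhba after GCV was at 141 CPM inside the mesothelial-like cluster and 679 CPM outside it. The steroid-metabolizing enzyme gene Akr1c18, the placental growth factor gene Pgf, the membrane protein gene Itm2a and the EGF receptor ligand gene Ereg had log2 ratios of 4.08, 3.62, 3.47 and 2.56. Ptgs2, Inhba, Pgf and Ereg were all higher in untreated WT/PBS than after GCV, with Pgf at 85.9 against 53.95 CPM and Ereg at 307 against 75.1 CPM. Of 7 iCAF genes tested, 4 (Il6, Ccl2, Ccl7 and Cxcl1) were at least 2-fold higher, against 2.14% of all genes tested. The median log2 ratio of the 7 was 1.19. The filter passed 3 of the 7 only through their level after GCV, and of the 4 at 50 CPM in both libraries 1 was at least 2-fold higher, with a median of 0.03. Between the PBS libraries, 7 of 10 iCAF genes tested were at least 2-fold lower in Pdgfrb-TK/PBS than in WT/PBS. Over all genes tested, 12.4% were lower and 6.35% higher by this limit. The median of the 10 iCAF genes was -4.06, but 6 of the 10 passed the filter only through WT/PBS. Of the 3 at 50 CPM in both PBS libraries, 2 were at least 2-fold higher in Pdgfrb-TK/PBS and 1 lower, with a median of 1.84, the opposite sign. The list summed to 2067, 1766, 6567 and 4677 CPM in library order. Il6 was at 65.4, 14.4, 249 and 242 CPM in library order (4.55-fold, 3.08 to 6.95).

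Chil3 and Lyz2, macrophage genes, were also among these, and most of their UMIs came from 1 cell each. Of 412 Lyz2 UMIs after GCV, 69.7% were in 1 cell, and of 195 Chil3 UMIs 50.8% were. Chil3 nonetheless had a UMI in 75 of 215 cells after GCV against 4 of 244. The 7 macrophage markers summed to 244, 42.1, 25.98 and 20.7 CPM in Wt1-set cells in library order and to 1174, 295, 873 and 487 CPM outside the gate. Lyz2 was the most abundant after GCV (124 CPM), C1qa was at 43.7 CPM against 1.98 CPM in the control, and Adgre1 was at 0 in each library other than Pdgfrb-TK/GCV. In the clustering, 3 Wt1-set cells of Pdgfrb-TK/GCV lay in a cluster led by the leukocyte genes Ngp, Camp and S100a9. The part of macrophage RNA in the other differences was not tested.

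Genes that were lower after GCV included Cxcl13, tumor cell genes and the matrix genes Eln and Lum. Cxcl13, the B cell chemokine, was at 43.1 (36.3 to 50.8), 464 (434 to 494), 97.6 (80.2 to 118) and 0.646 (0.0164 to 3.599) CPM in library order, a fold of 0.0930 after GCV (0.0774 to 0.111), with UMIs in 25 of 215 against 50 of 244 cells. Its log2 ratio was -1.03 in the other gate cells and 0.29 outside the gate. The elastin gene Eln was at 43.4, 168, 234 and 871 CPM (fold 0.259, 0.212 to 0.316), and the matrix proteoglycan gene Lum, a gene of the gate, at 40.1, 150.2, 223 and 178 CPM (fold 0.267, 0.216 to 0.328). Both were lowest after GCV of the 4 libraries. Most other matrix genes were within 2-fold of PBS. Of 15 interstitial matrix genes tested, 2 were at least 2-fold lower, against 1.69% of all genes tested, and 4 were above PBS. The median log2 ratio of the 15 was -0.37. The filter passed 2 of the 15 only through Pdgfrb-TK/PBS. Of the 13 at 50 CPM in both libraries 1 was at least 2-fold lower, with a median of -0.37. The list summed to 9371 CPM after GCV against 9325 CPM. The collagen gene Col12a1 (118 against 59.005 CPM) and the tenascin gene Tnc (176 against 99.2 CPM) were above PBS. The other genes among the 10 with the smallest ratio to PBS were Tff1, Gsta1, Ttr, Fmo2, Igfbp5, Tm4sf4 and Defb48, and 58.2% of the Igfbp5 UMIs of Pdgfrb-TK/PBS were in 1 cell. Within the mesothelial-like cluster Defb48 went the other way and was higher after GCV. Tff1, a trefoil peptide gene, was at 207, 1910.5, 64.5 and 77.5 CPM in Wt1-set cells, with a log2 ratio of -3.20 there and -2.37 outside the gate. Tff1 and Gsta1 were among the 10 leading genes of a gate cluster with 20 Wt1-set cells of Pdgfrb-TK/GCV and 35 of Pdgfrb-TK/PBS. Of the 9 epithelial markers, 6 were tested, 3 were at least 2-fold lower (2 of the 5 at 50 CPM in both libraries) and none of the 6 was above PBS. Over all genes tested, 1.69% were lower by this limit. Haemoglobin genes, left out of the named genes, summed to 506 CPM in Wt1-set cells of Pdgfrb-TK/PBS and 0.301 CPM after GCV, and 93.1% of the Hbb-bs UMIs of Pdgfrb-TK/PBS were in 1 cell. The part of RNA of tumor and red blood cells in these values was not tested. Of 6 mesothelial genes tested, 1 (Msln, fold 0.487) was past 2-fold, against 3.83% of all genes tested. Upk3b, under the filter, was at 38.9 against 43.1 CPM.

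**Figure D4:**
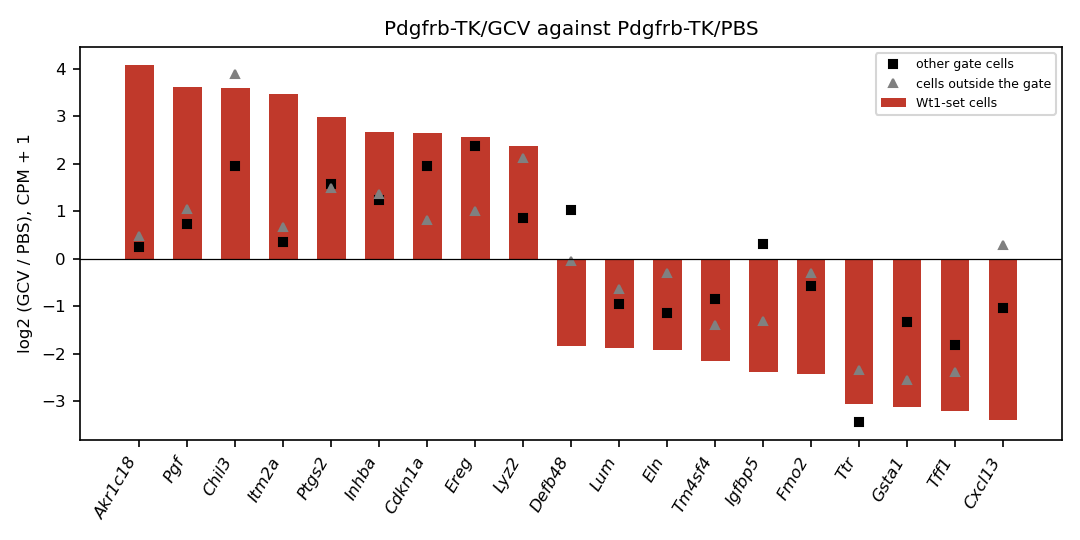
Log2 ratio of Pdgfrb-TK/GCV to Pdgfrb-TK/PBS (y axis, from CPM + 1) for 9 of the 10 genes with the largest ratio and the 10 with the smallest in Wt1-set cells (bars), with the same ratio in the other gate cells (squares) and outside the gate (triangles). Akr1c18 stood at 4.08 and Cxcl13 at -3.40, and the ratios of Akr1c18 and Itm2a were under 1 in both other groups of cells.

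Between D-CAN and WT/PBS, Wt1-set cells differed in more genes, 738 of 4114 tested (17.9%), of which 435 (10.6%) were higher and 303 (7.37%) lower in D-CAN, with a median log2 ratio of 0.02. Thinned to 2000 UMIs per cell, 152 genes differed, 53 higher and 99 lower, the other balance of directions. The same comparison gave 11.9% of the genes in the other gate cells and 7.69% outside the gate. It sets 99 cells, 67 of them in the mesothelial-like cluster, against 93 cells with 11 in it. The median mitochondrial share of UMIs was 2.48%, 2.26%, 4.79% and 2.41% in Wt1-set cells in library order, and 6.06% of those of D-CAN were over 20%, against 0 in the other libraries. Restricted to the cluster, with 11 cells of WT/PBS, 501 of 1625 genes (30.8%) differed by 2-fold or more, 343 (21.1%) higher and 158 (9.72%) lower, with a median log2 ratio of 0.12. Against Pdgfrb-TK/PBS, 925 of 4068 genes (22.7%) differed, 651 (16%) higher and 274 (6.74%) lower. The PBS libraries differed from each other in 746 of 3982 genes (18.7%), of which 253 (6.35%) were higher and 493 (12.4%) lower in Pdgfrb-TK/PBS, close to the share between D-CAN and its control.

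MHC class II genes were highest in the Wt1-set cells of D-CAN. Cd74 was at 80.8 (71.4 to 91.1), 109.6 (95.6 to 125), 760.5 (710.2 to 813) and 17.4 (11.5 to 25.4) CPM in library order, 43.6-fold higher in D-CAN than in WT/PBS (29.8 to 66.6). The class II chain gene H2-Ab1 was at 57.9 (49.98 to 66.7), 43.1 (34.6 to 53.2), 238 (210.5 to 269) and 12.3 (7.39 to 19.2) CPM, H2-Aa at 19.6, 20.8, 117 and 5.17 CPM and H2-Eb1 at 21.1, 23.3, 198 and 2.58 CPM. At least 2 of these 3 chain genes were detected in 18.1%, 10.2%, 39.4% and 2.15% of the Wt1-set cells, in 6.59%, 3.78%, 8.43% and 1.75% of the other gate cells and in 14.1%, 5.95%, 19.4% and 8.92% of the cells outside the gate, where the immune cells lie. The interval was 29.7% to 49.7% for the Wt1-set cells of D-CAN and 0.262% to 7.55% for those of WT/PBS, whose share was close to that of its other gate cells. At 2000 UMIs per cell, at least 1 of the 3 was found in 19.6%, 11.8%, 39.4% and 5.68% of the Wt1-set cells and 17.9%, 7.86%, 24.5% and 12.1% of the cells outside the gate. Inside the mesothelial-like cluster H2-Ab1 was at 74.5, 59.1, 344 and 35.05 CPM, the last from 7 UMIs in 11 cells. The class II transactivator gene Ciita was at 0, 0.992, 2.69 and 0 CPM. The B cell markers Cd79a, Cd79b and Ms4a1 were at 0 in the Wt1-set cells of both libraries compared, and the 7 macrophage markers summed to 25.98 CPM in D-CAN, with Adgre1 at 0. Acinar markers, those of the enzyme-secreting pancreas cells, were highest in D-CAN. The 6 genes summed to 37.7, 35.2, 149.6 and 7.75 CPM in Wt1-set cells in library order, 22.2, 29.3, 68.1 and 19.3 CPM in the other gate cells and 35.5, 50.9, 333 and 24.8 CPM outside the gate. The most abundant in D-CAN was Ctrb1 (67.2 CPM), none was at 0 there, and 3 of the 6 were at 0 in WT/PBS. The part of RNA of immune or acinar cells in the D-CAN results was not tested.

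Targets of interferon-γ, which induces MHC class II, differed with them. Of 12 tested, 10 were at least 2-fold higher in D-CAN than in WT/PBS, against 10.6% of all genes tested. Another 1 (Cxcl10) was at least 2-fold lower, against 7.37% of all genes tested. The median log2 ratio of the 12 was 2.07. Of the 9 at 50 CPM in both libraries, 7 were at least 2-fold higher and 1 lower, with a median of 1.75. Against Pdgfrb-TK/PBS, 11 of 12 were at least 2-fold higher and none lower, where 16% of all genes tested were higher. The median of the 12 was 2.24, against 0.16 over all genes tested. Of these 12, 6 passed the filter only through D-CAN, and of the 6 at 50 CPM in both libraries 5 were at least 2-fold higher, with a median of 1.91. Within the mesothelial-like cluster, 10 of 10 tested were at least 2-fold higher than in WT/PBS, with a median of 1.80, and so were all 7 at 50 CPM in both libraries (median 1.72). Over all genes tested in the cluster, 21.1% were higher by this limit. B2m, the light chain of MHC class I, was at 516, 484, 1851 and 429 CPM in library order and the immunity-related GTPase gene Iigp1 at 27.1, 50.1, 377 and 72.3 CPM. The log2 ratio of Iigp1 to WT/PBS was 2.37 in Wt1-set cells, 4.53 in the other gate cells and 5.71 outside the gate. For B2m it was 2.11, 1.68 and 1.98, so these genes were higher in all 3 groups of cells of D-CAN. For Cd74 it was 5.37, 1.29 and 1.26.

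Complement genes were higher in D-CAN as well. Of 9 tested, 8 were at least 2-fold higher than in WT/PBS (median log2 ratio 2.30), against 10.6% of all genes tested. In the comparison with Pdgfrb-TK/PBS, 5 of 9 were at least 2-fold higher (median 1.04), against 16% of all genes tested. In the latter comparison 3 of the 9 passed the filter only through D-CAN, and 3 of the 6 at 50 CPM in both libraries were at least 2-fold higher. Of the 5 at 50 CPM in both D-CAN and WT/PBS, 4 were at least 2-fold higher, with a median of 2.30. Within the cluster, 3 of 6 tested were at least 2-fold higher than in WT/PBS (median 1.45), against 21.1% of all genes tested there. C3 was at 1003 (969.6 to 1038), 827 (787 to 867), 3159 (3056 to 3265) and 102 (86.8 to 119) CPM in library order. Inside the cluster C3 was at 4025 CPM in D-CAN against 230.3 CPM in WT/PBS. The log2 ratio of C3 to WT/PBS was 4.94 in Wt1-set cells and 4.38 in the other gate cells. Factor B (Cfb) was at 203, 183, 358 and 51.03 CPM, and the classical pathway protease genes C1ra and C1s1 were at 88.3, 75.9, 157 and 34.2 CPM and 210.4, 197, 410.2 and 82.7 CPM.

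Of 14 mesothelial genes, 10 passed the filter between D-CAN and WT/PBS, 6 of them only through their level in D-CAN, so that their difference was partly set by the filter. Of the 10, 7 were at least 2-fold higher in D-CAN (median log2 ratio 2.75), against 10.6% of all genes tested. Of the 4 at 50 CPM in both libraries 1 was, with a median of 0.55. Against Pdgfrb-TK/PBS, 6 of 11 were at least 2-fold higher (median 1.11), where 16% of all genes tested were. Of the 11, 5 passed only through D-CAN, and of the 6 at 50 CPM in both 1 was at least 2-fold higher, with a median of -0.50. Without the filter, 11 of the 14 were at least 2-fold higher in D-CAN than in WT/PBS, and 8 than in Pdgfrb-TK/PBS. No share over all genes was calculated without the filter, so these counts have no background. Some also rest on few UMIs, as WT/PBS had 0 of Cldn15, 1 of Upk3b, 2 of Muc16 and 4 each of Lrrn4 and Bnc1. Within the mesothelial-like cluster, under the same filter, 6 of 9 tested were at least 2-fold higher than in WT/PBS, with a median of 1.47, and 3 of the 6 at 50 CPM in both libraries (median 1.03). Over all genes tested in the cluster, 21.1% were higher by this limit. Inside this cluster Upk3b was at 204 CPM in D-CAN against 69.4 CPM in Pdgfrb-TK/PBS. Over all Wt1-set cells of D-CAN, 1 cell held 41.6% of the Upk3b UMIs. For Cxcl13 and Lrrn4 the share in 1 cell was 49.5% and 38.7%. The retinoic acid synthesis gene Aldh1a2 was at 100.4, 145, 288 and 98.8 CPM in library order and the transcription factor gene Gata6 at 181, 187, 216 and 72.99 CPM. The 10 genes with the largest ratio to WT/PBS were Upk3b, Cxcl13, H2-Eb1, Ly6a, Cd74, Pkhd1l1, C3, Gpm6a, Lrrn4 and Fgf14. Of these, Upk3b (fold 214, 37.8 to 8489) and Cxcl13 rested on 1 UMI in WT/PBS, and Cxcl13 was lower in D-CAN than in Pdgfrb-TK/PBS. Dcn, the binding partner of D-CAN, was 2.50-fold higher than in WT/PBS (2.36 to 2.65) and 1.45-fold higher than in Pdgfrb-TK/PBS (1.39 to 1.52), with a log2 ratio of 1.32 to WT/PBS in Wt1-set cells and 1.18 in the other gate cells.

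**Figure D5:**
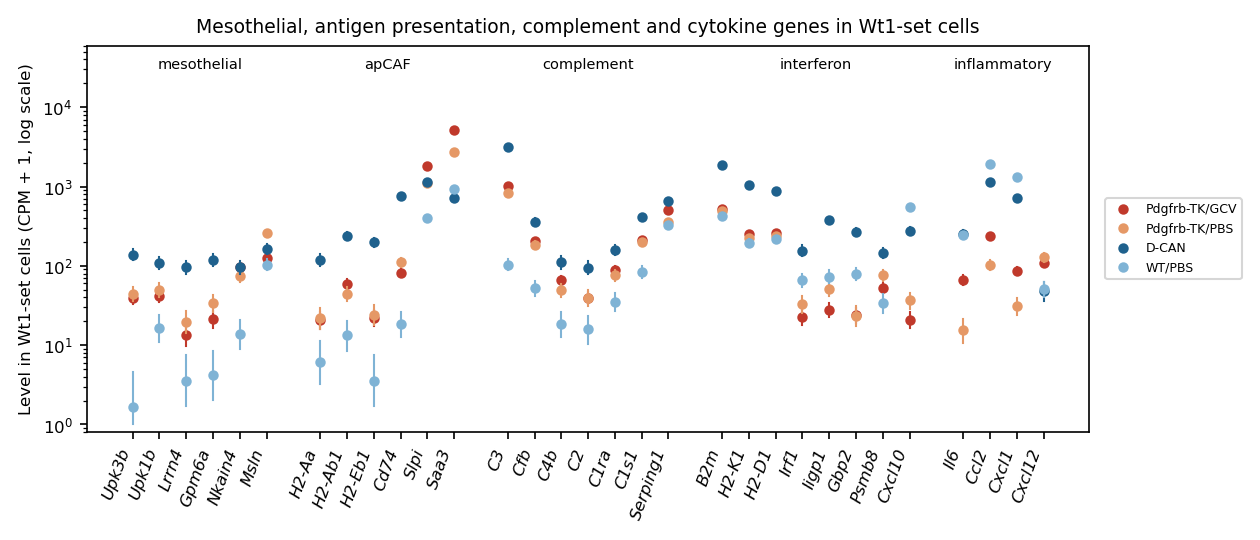
Summed level in Wt1-set cells (y axis, CPM + 1 on a log scale) of the genes of 5 groups in the 4 libraries, with exact Poisson 95% intervals. D-CAN is highest for the MHC class II genes, Cd74 (760.5 CPM), C3 (3159 CPM) and B2m (1851 CPM), while Ccl2 and Cxcl1 are highest in WT/PBS.

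The 10 genes with the smallest ratio to WT/PBS were Ctla2a, Cthrc1, Ifit1, Tsc22d3, Fmo2, Pcdh9, Mmd, Inhba, Rgcc and Herpud1. Within the mesothelial-like cluster Ifit1 and Rgcc went the other way and were higher in D-CAN than in WT/PBS, but on few UMIs. The cluster held 11 Wt1-set cells of WT/PBS, where the Poisson interval of a count of 0 reaches 18.5 CPM. All Wt1-set cells of D-CAN together had 25 UMIs of Ifit1 and 24 of Rgcc. Ifit1 also turned at equal depth, with a log2 ratio of 1.81 (interval -1.15 to 7.42). Without Wt1 in the rule its log2 ratio was 0.46 (interval -0.58 to 1.61). Against Pdgfrb-TK/PBS, Rgcc and Herpud1 were higher in D-CAN. Ctla2a, a cathepsin inhibitor gene, was at 1572, 1706, 48.4 and 1464 CPM in library order and was thus low in D-CAN against any other library. Ctla2a and Inhba were among the 10 leading genes of the cluster that held 35 of the 93 Wt1-set cells of WT/PBS. Inhba was at 349.95, 54.5, 186 and 1055 CPM, lower in D-CAN than in WT/PBS and higher than in Pdgfrb-TK/PBS. Cthrc1, a collagen-associated gene of the Fbn2 set, was at 70.8, 36.2, 9.85 and 226 CPM, and the endoplasmic reticulum stress gene Herpud1 at 53.7, 51.1, 60.01 and 329 CPM, high in WT/PBS alone. Of 261 Ifit1 UMIs in WT/PBS, 40.6% were in 1 cell. Of 8 myCAF genes tested, 1 was at least 2-fold higher in D-CAN than in WT/PBS and 2 (Thbs2 and Thy1) at least 2-fold lower. Over all genes tested, 10.6% were higher and 7.37% lower, and the median log2 ratio of the 8 was -0.72. Against Pdgfrb-TK/PBS, 4 of 8 were at least 2-fold higher and none lower (median 1.12), where 16% of all genes tested were higher. In that comparison 2 of the 8 passed the filter only through D-CAN, and of the 6 at 50 CPM in both libraries 2 were at least 2-fold higher, with a median of 0.87. Within the cluster, none of 4 tested was past 2-fold against WT/PBS, with a median of -0.60. Of the 11 immediate early and heat shock genes, 10 were at least 2-fold higher in D-CAN than in WT/PBS within the cluster (median log2 ratio 2.22). Over all genes tested in the cluster, 21.1% were higher by this limit. The part of immediate early and heat shock genes in the D-CAN results was not tested.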

How the data were processed

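scRNA-seq was analyzed in 4 libraries, 1 per condition. The authors deposited counts: UMIs per gene and cell from Chromium 3′ libraries, aligned to mm10 by Cell Ranger with STAR, without normalization. The file headers name Cell Ranger 7.0.0, and the submitters' processing notes name STAR 2.6. The protocol text of the labels describes nuclei of another tissue (PVN), so libraries were matched to conditions by title. The files list 32285 genes.

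The 608, 30, 26 and 0 cells under 200 genes in D-CAN, WT/PBS, Pdgfrb-TK/PBS and Pdgfrb-TK/GCV were left out, and doublets were kept. UMIs were summed over the cells of a class and scaled to CPM. Log2 ratios used a pseudocount of 1 CPM and therefore understate changes of low genes. Genes with at least 100 UMIs and 50 CPM were compared, and 2-fold was the limit for naming a difference, with no test. Against other gate cells, the 100 UMIs were counted in Wt1-set cells over the libraries, the 50 CPM were a mean over libraries and the 33 rule genes were left out. Shares have exact Clopper-Pearson intervals, share folds and gene folds exact conditional binomial intervals and levels exact Poisson intervals at 95%. All cover counting error only. Named genes were the rule genes, members of 33 gene lists, the 15 genes highest and 10 lowest against other gate cells in all libraries, and the 10 largest and smallest ratios in each treatment comparison (without Gm and Rik models, mitochondrial and haemoglobin genes). Gate cells were clustered (2000 variable genes, 10 components, 20 neighbors, Leiden resolution 0.8, leidenalg 0.10.2) without the rule genes. The calculations used Python 3.11.15, NumPy 2.4.6 and SciPy 1.17.1, and the ratios were tested on simulated data. The members, lists and comparisons were chosen with earlier results of these data known. A few items that these rules name are not reported here.

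Alternatives changed the cell minimum (500 genes), mitochondrial share (20%), depth (2000 UMIs), class minimum (3), gate minimum (5), the rule (without Wt1 or Calca), cells of highest UMIs (5%), cells with Epcam, the control library, centring, pseudocount (10 CPM) and filter (20 UMIs and 10 CPM). Counts of list members at the CPM minimum in both libraries, or without the filter, were added after seeing the data.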

Additional observations from a re-analysis of the deposited data

How the results depend on the processing

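With 1 library per condition, differences between libraries cannot be told apart from differences between treatments. Depth limits single genes: 3 UMIs correspond to 0.904 CPM in Pdgfrb-TK/GCV and 2.69 CPM in D-CAN. No paired analysis was possible because each group has 1 library and no test was made.

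Minimums of 500 genes and of 5 gate genes, the mitochondrial limit and the removal of the deepest gate cells kept every share fold within its interval and every gene count within 1.5 times. With the other PBS library as the control, the fold of the gate share was 16.7 for GCV and 0.182 (reversed) for D-CAN, the fold of the share of all cells 2.19 (reversed) and 0.417, and 709 genes were past 2-fold for GCV, 34.0% of them higher against 55.9%, while for D-CAN 70.4% were higher against 58.9%. 8 named genes then changed sign for GCV (Pgf -0.66, Ptgs2 -2.33, Inhba -1.59, Ereg -2.02, Cxcl13 4.74, Tff1 1.41, Gsta1 0.18, Ttr 0.24) and 4 for D-CAN (Cxcl13 -2.24, Inhba 1.75, Rgcc 0.86, Herpud1 0.23). Thinned to 2000 UMIs, 117, 141, 71 and 44 cells met the rule, 101, 129, 54 and 23 of them members at full depth, the D-CAN fold of the share of all cells was 1.97, 49 genes were past 2-fold for GCV and 152 for D-CAN (34.9% of them higher), 10 were higher and 2 lower than in other gate cells in every library, and Ifit1 for D-CAN turned to 1.81. Without Wt1 in the rule, the D-CAN folds of the gate and of all cells were 3.67 and 2.25 and Ifit1 was at 0.46. With the lower filter, 513 (44.2% higher) and 1917 genes were past 2-fold for GCV and D-CAN. Against other gate cells, 28 genes were lower with Clec3b-set, Apod-set and Fbn2-set cells alone, 19 were higher with a pseudocount of 10 CPM, and 22 were lower without cells with an Epcam UMI. Chosen after seeing the data, the 3 libraries without WT/PBS gave 64 higher and 30 lower, members with fewer than 2 surface genes gave 194 genes for GCV and 747 for D-CAN (47.7% higher), and members of the mesothelial-like cluster gave 183 (45.9% higher) and 501, D-CAN folds of 11.3 of the gate and 6.96 of all cells, with Defb48 for GCV at 0.27, Ifit1 for D-CAN at 5.03 and Rgcc for D-CAN at 1.16. The cause was not tested for any of these.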

Other observations

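Calcitonin family genes other than Calca were low in Wt1-set cells, and none of the 9 on the list passed the filter for a comparison. Calcb, which encodes a second CGRP peptide, was at 19.3, 13.4, 11.6 and 0 CPM in library order, against at most 1.54 CPM in the other gate cells of any library. The CGRP receptor genes Calcrl and Ramp1 were lower in Wt1-set cells (4.22, 3.97, 1.79 and 5.81 CPM for Calcrl, 12.4, 3.97, 8.96 and 6.46 CPM for Ramp1) than in the other gate cells (19.4, 21.6, 24.4 and 13.1 CPM for Calcrl, 29.6, 11.3, 53.98 and 30.5 CPM for Ramp1). Calca had a UMI in 106 of 215, 107 of 244, 19 of 99 and 16 of 93 Wt1-set cells in library order. Ptgs1 (COX-1), an enzyme upstream of prostacyclin synthase, was at 153, 87.3, 117 and 40.7 CPM in Wt1-set cells and at 46.2, 41.1, 18.7 and 20.98 CPM in the other gate cells.

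Most immediate early and heat shock genes were higher in Wt1-set cells of the D-CAN and WT/PBS libraries than in Pdgfrb-TK/PBS. Between the PBS libraries, 7 of 11 were at least 2-fold higher in WT/PBS, against 12.4% of all genes tested. Of these 11, 2 passed the filter only through WT/PBS. Of the 9 at 50 CPM in both PBS libraries 5 were past 2-fold, with a median log2 ratio of -1.02 of Pdgfrb-TK/PBS to WT/PBS. All 11 genes of this list were tested between D-CAN and Pdgfrb-TK/PBS. In D-CAN 9 were at least 2-fold higher, against 16% of all genes tested, with a median log2 ratio of 1.82. The filter passed 2 of the 11 only through D-CAN. Of the 9 at 50 CPM in both libraries 7 were at least 2-fold higher, with a median of 1.81. Between GCV and PBS, all 11 were above PBS, with a median of 0.58, and 3 were at least 2-fold higher, against 2.14% of all genes tested. Between D-CAN and WT/PBS, 3 were at least 2-fold higher, against 10.6% of all genes tested, and the median was 0.21. The heat shock gene Hspa1a was at 200.1, 63.96, 1062 and 1173 CPM in Wt1-set cells in library order and at 122, 31.3, 233 and 1576 CPM in the other gate cells. The host and the library cannot be told apart here.

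Reporter sequences for Tdtomato and GFP are listed in the D-CAN and WT/PBS libraries. In Wt1-set cells Tdtomato had 5 UMIs in D-CAN against 62 in WT/PBS, and GFP had 12 against 25, so neither was above its level in the PBS library.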
